A study of Mus musculus with 6 samples.

Results

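Coagulation and fibrinolysis genes were followed in whole kidney after deletion of the transferrin receptor TfR1 from part of the nephron. They were 9 genes taken by name from 24422 in the count tables: the fibrinogen chains Fga, Fgb and Fgg, the plasminogen activators Plau (urokinase) and Plat (tissue type), the urokinase receptor Plaur, tissue factor (F3), the A chain of clotting factor XIII (F13a1) and thrombomodulin (Thbd). All 9 passed the filter on low counts that left 15171 genes for testing. Poly-A RNA was sequenced from kidneys of C57BL/6 mice at P60 on an iron-sufficient diet of 220 ppm, in 3 control libraries (genotype wild type) and 3 TfR1KO;KspCre libraries (genotype Tfr1f/f;KspCre, called knockouts 1 to 3). In KspCre mice the promoter of Ksp-cadherin, a gene of the distal nephron and collecting duct, drives the Cre recombinase, so the floxed exons of Tfrc, the gene of TfR1, are removed in a part of the tubule cells and the whole organ was measured. The floxed exons are only a piece of the transcript, and the labels name no control that carried the Cre or the floxed alleles alone.

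Clotting starts when tissue factor meets plasma factor VII and ends when thrombin cuts fibrinogen into fibrin, which factor XIII then cross-links. Thrombomodulin on the vessel wall turns thrombin toward activation of protein C, a brake on the cascade, and urokinase and tissue plasminogen activator make plasmin, which dissolves fibrin. Fibrinogen is made mainly in the liver, whereas kidney tubules are a known source of urokinase, which is released into urine.

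Values of 3 libraries are always given in the order of replicates 1, 2 and 3. Libraries held between 11501053 (knockout 3) and 21001341 counts. Tfrc did not serve as a check of the labels: its level was 138, 168 and 62.0 CPM (counts per 1e6 counts of the library, TMM-normalised) in the controls and 214, 86.0 and 40.6 in the knockouts (log2 fold change -0.11, SE 0.62, adjusted p = 0.911). Each of 4 libraries stood apart in some way. Control 2 alone held Y-linked transcripts (3980 counts over 4 genes, against at most 5 elsewhere) and hardly any Xist. Control 3 had more of some liver transcripts, with 74.9 CPM of albumin (Alb) against 2.46 to 8.01 in the other libraries and 70 counts of Ahsg against 0 to 9. This pair was named after its values were seen. Apoa1, Apoa2, Ttr and Tat were also highest in control 3, at 3.36, 9.48, 160 and 0.540 CPM, Tat with only 9 counts. The last hepatocyte markers, Apob and Apoc3, were not. Apob was 511 CPM in control 2 against 203 in control 3, and Apoc3 was lower in control 3 than in the other controls. The 6 markers that define kidney, all detected in every library, summed to between 13143 and 16030 CPM in the controls, to 8870 in knockout 1, and to 2717 and 1480 in knockouts 2 and 3. Knockout 3 also had 2.59% of its counts on the ribosomal RNA gene Rn45s, against 0.506% to 0.745% elsewhere.

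Of the 9 genes, 3 passed the test between genotypes (edgeR quasi-likelihood test, Benjamini-Hochberg adjusted p under 0.05 over all genes tested), and all 3 were higher in the knockouts: F3, Thbd and Plaur. Among all tested genes 17.2% passed, 10.6% as higher and 6.64% as lower. DESeq2's Wald test called 5 of the 9, with Fgg and F13a1 in addition, beside 32.2% of all genes, and edgeR with library size alone called 4, with Fgg in addition, beside 24.0% of all genes. F3, Thbd and Plaur were the only members whose control and knockout libraries did not overlap, against 46.0% of all tested genes. The median log2 fold change of the 9 was 1.32, with 8 positive and 1 negative, beside 0.021 over all genes tested. Of all 2612 calls 61.4% were higher in the knockouts, and with library size alone as the scaling it was 81.8% of 3647, with the median of all genes at 0.29. No member changed sign under that or any other setting tried. In bulk kidney, fewer cells of a type and less RNA per cell cannot be told apart, and this holds for every gene given here.

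**Figure D1:**
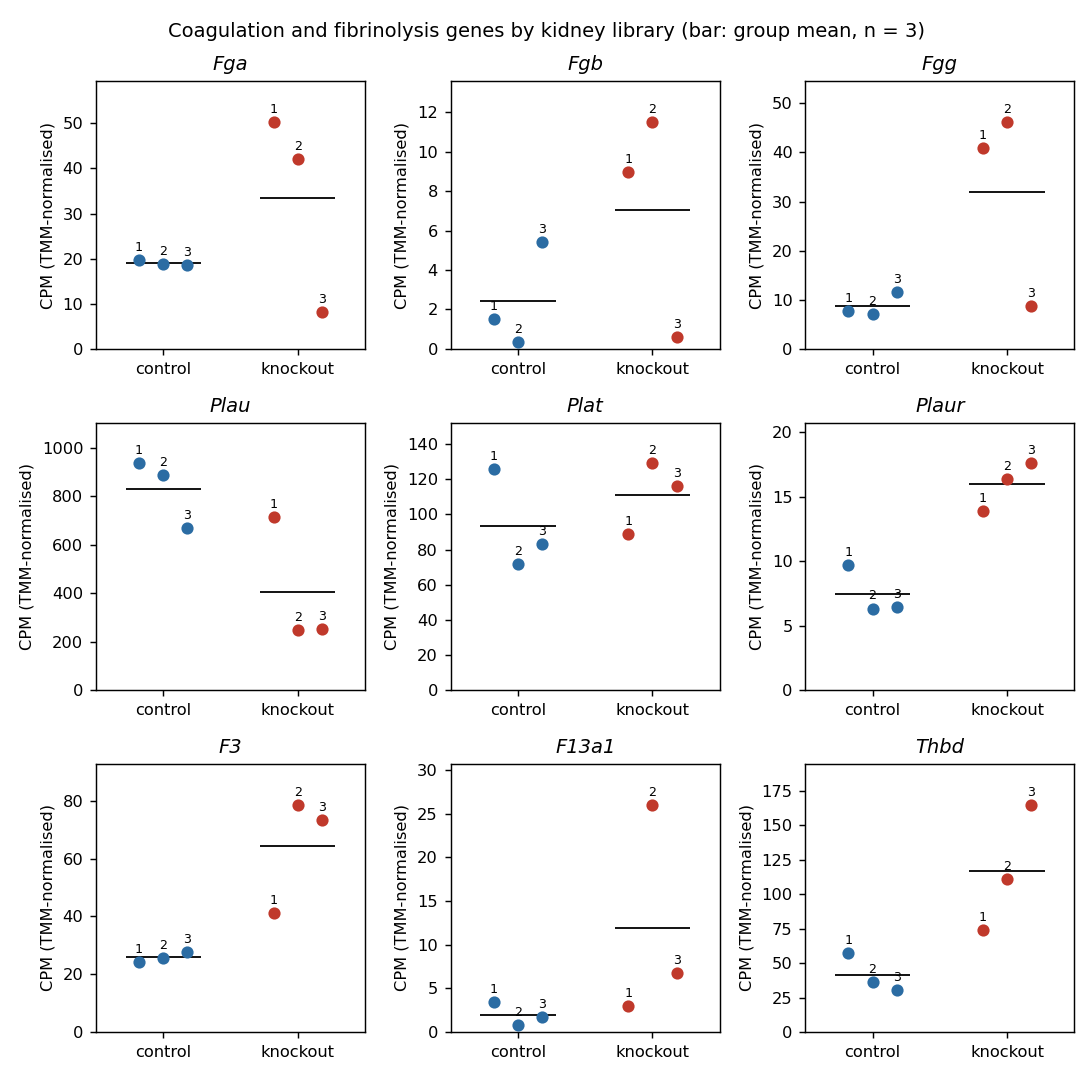
CPM (vertical axis, linear from 0) of the 9 genes in each of the 3 control and 3 knockout libraries, with the replicate number beside each point and the group mean (n = 3) as a bar. The groups separate for Plaur, F3 and Thbd, knockout 3 lies far below knockouts 1 and 2 for all 3 fibrinogen chains, and knockout 1 lies with the controls for Plau.

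Tissue factor, the membrane protein that sets off clotting, rose 2.50-fold. F3 (ENSMUSG00000028128, mm9 chr3:121426455-121437970, plus strand) stood at 24.1, 25.6 and 27.7 CPM in the controls and at 41.3, 78.7 and 73.4 CPM in the knockouts. Every knockout lay above every control, and knockout 1 was the nearest to them. The group means were 25.8 ± 1.8 and 64.5 ± 20.2 CPM (mean ± SD, 3 libraries a group), with a log2 fold change of 1.32 (SE 0.25, adjusted p = 0.0303). The ratio of knockout to control mean was 0.68 on the log2 scale in knockout 1, 1.61 in knockout 2 and 1.51 in knockout 3.

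Thrombomodulin, the thrombin receptor of endothelium, rose 2.83-fold. Thbd (ENSMUSG00000074743, mm9 chr2:148230207-148233924, minus strand, a gene of 1 exon) gave 57.4, 36.0 and 30.1 CPM in the controls and 73.8, 111 and 165 CPM in the knockouts. The highest control was below the lowest knockout, and knockout 3 was the highest of all. Means were 41.2 ± 14.4 and 117 ± 45.6 CPM (mean ± SD, 3 libraries a group), and the log2 fold change was 1.5 (SE 0.36, adjusted p = 0.0379). Of 10 endothelial markers 1 passed the test, with a median log2 fold change of 0.29. Their summed level was 1424, 1227 and 807 CPM in the controls and 1678, 1314 and 1294 CPM in the knockouts, so the groups overlapped. The part of endothelium in the level of Thbd was not tested.

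The urokinase receptor, which holds urokinase at the cell surface, rose 2.12-fold. Plaur (ENSMUSG00000046223, mm9 chr7:25247519-25260892, plus strand) read 9.70, 6.35 and 6.48 CPM in the controls against 13.9, 16.4 and 17.6 CPM in the knockouts. The knockouts lay close together and all above control 1, the highest control. Means were 7.51 ± 1.90 and 16.0 ± 1.90 CPM (mean ± SD, 3 libraries a group), a log2 fold change of 1.09 (SE 0.24, adjusted p = 0.0349). Plaur rested on 108 to 327 counts per library. Myeloid cells also carry this receptor, and 9 of 10 macrophage and monocyte markers rose, with sums of 190 to 219 CPM in the controls and 606, 2213 and 846 CPM in the knockouts. Plaur did not follow the order of those sums among the knockouts, and their part in its rise was not tested.

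The 3 calls were lost when a control or knockout 2 or 3 was left out. Without control 1, 2 or 3, or without knockout 2 or 3, F3 had an adjusted p between 0.0678 and 0.118, Thbd between 0.0805 and 0.130 and Plaur between 0.0805 and 0.124, while the log2 fold changes stayed between 1.15 and 1.37, 1.17 and 1.8, and 0.97 and 1.30. Without control 2, the library with Y-linked transcripts, the values were 1.31 for F3, 1.41 for Thbd and 0.97 for Plaur, and with the ratio of Xist to Y-linked transcripts as a covariate they were 1.32, 1.44 and 0.99, with adjusted p between 0.111 and 0.121. In the fits without a control or without knockout 2 or 3, 3 to 6 members had an unadjusted p under 0.05 and 0 passed after adjustment. Without knockout 1 all 3 passed and Plau and F13a1 passed too, 5 of 9 against 34.4% of all genes in that fit.

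**Figure D2:**
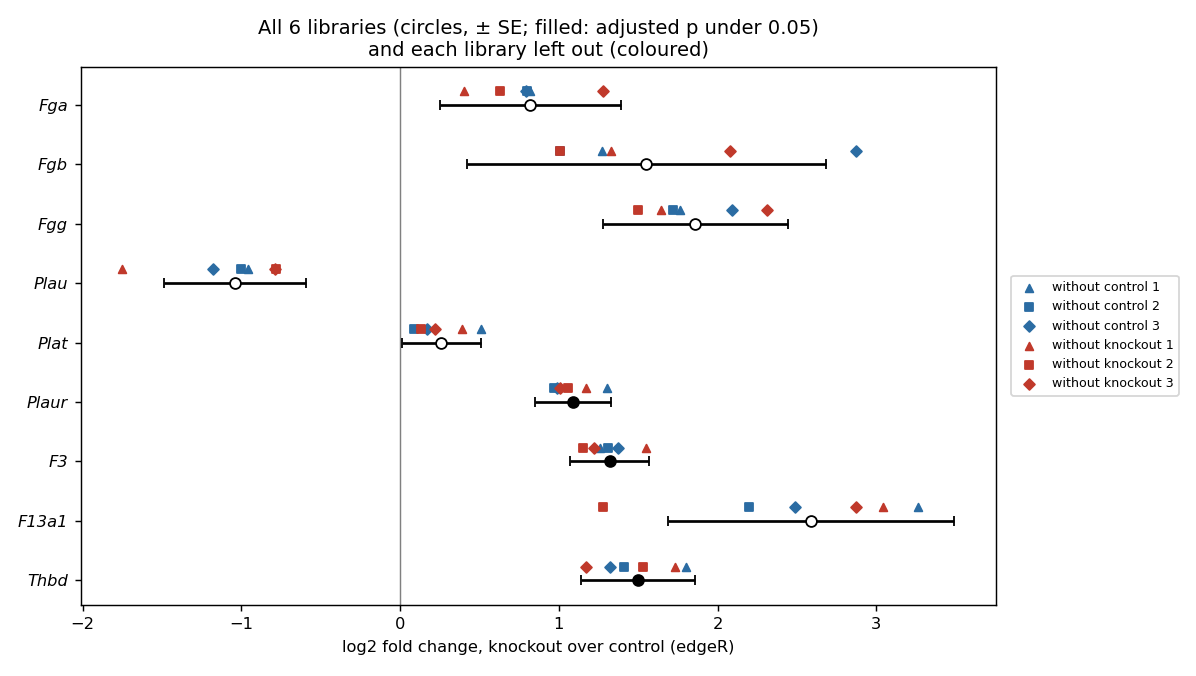
Log2 fold change of knockout over control (horizontal axis) for the 9 genes in the fit on all 6 libraries (circles with SE bars, filled where adjusted p was under 0.05), and the same value with each library left out (blue for a control, red for a knockout). No value crosses 0, F13a1 drops to 1.28 without knockout 2, Plau moves to -1.75 without knockout 1, and Fgb moves to 2.87 without control 3.

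The start regions of F3 and Plaur are shown because both genes rose. RefSeq (GRCm38.p6) gave start regions for 6 of the 9 genes, not for Plau, Plat and Thbd. The 250 bases before the start were searched on both strands for 6 short motifs: CTGGGAA (the core of an interleukin-6 response element), TTCNNNGAA (the STAT family), GTTAAT (a part of the HNF1 site), TGANTCA (AP-1), GGGCGG (the GC box) and ACGTG (the core of the hypoxia response element). Below, F3 covers chr3:121723287-121723536 and Plaur chr7:24462233-24462482, both on the plus strand, written 5′ to 3′ and ending at the base before the start, with motif matches in capitals.
F3: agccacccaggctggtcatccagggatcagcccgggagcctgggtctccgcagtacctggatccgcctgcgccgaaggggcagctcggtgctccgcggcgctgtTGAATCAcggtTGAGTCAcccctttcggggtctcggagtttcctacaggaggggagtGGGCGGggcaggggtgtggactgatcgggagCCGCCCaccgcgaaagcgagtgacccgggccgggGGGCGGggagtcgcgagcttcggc
Plaur: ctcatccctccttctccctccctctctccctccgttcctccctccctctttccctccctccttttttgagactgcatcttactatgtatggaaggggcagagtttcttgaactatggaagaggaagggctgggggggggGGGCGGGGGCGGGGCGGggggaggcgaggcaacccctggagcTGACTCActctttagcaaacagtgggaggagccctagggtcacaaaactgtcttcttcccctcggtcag
F3 held TGANTCA at 146 to 140 and again at 135 to 129 bases before the start, and Plaur held it at 69 to 63. GGGCGG occurred in 3 places in each, and in Plaur the last pair shared a base. Of 32851 promoter windows of this length 6.75% held TGANTCA and 32.7% held GGGCGG. None of the windows of the 6 genes held ACGTG, against 16.6% of all, which says only that these letters were not there. F13a1 had 2 start regions in the table and none of the 6 motifs in either. A match is a description and not a binding site.

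Fibrinogen transcripts were high in knockouts 1 and 2 and low in knockout 3, and none of the 3 chains passed the test. Fgg (mm9 chr3:82811781-82818975, plus strand), Fga (chr3:82830075-82838036, plus strand) and Fgb (chr3:82846169-82853725, minus strand) lie side by side within 41945 bases, with gaps of 11099 and 8132 bases, and overlap no other annotated gene. Fgg, the gamma chain, had 7.76, 7.17 and 11.5 CPM in the controls and 40.9, 46.2 and 8.66 CPM in the knockouts. Knockouts 1 and 2 stood far above the controls, and knockout 3 stood within their range. Means were 8.80 ± 2.33 and 31.9 ± 20.3 CPM (mean ± SD, 3 libraries a group), with a log2 fold change of 1.86 (SE 0.58, adjusted p = 0.0653). Without knockout 3 the value was 2.31 (adjusted p = 0.0564), and DESeq2's Wald test on all 6 libraries gave an adjusted p of 0.00785.

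Fga, the alpha chain, had 19.6, 18.9 and 18.6 CPM in the controls and 50.3, 42.0 and 8.20 CPM in the knockouts. The controls were almost equal, 2 knockouts lay above them and knockout 3 lay below. Means were 19.0 ± 0.480 and 33.5 ± 22.3 CPM (mean ± SD, 3 libraries a group), and the log2 fold change of 0.82 (SE 0.57, adjusted p = 0.320) did not pass. Without knockout 3 it was 1.28 (adjusted p = 0.0564), and without knockout 1 it was 0.40 (adjusted p = 0.629).

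Fgb, the beta chain, was the scarcest of the 3, with 1.54, 0.353 and 5.40 CPM in the controls and 8.98, 11.5 and 0.613 CPM in the knockouts. Control 3 was the highest control and knockout 3 lay inside the control range. These came from 31, 6 and 90 counts and from 183, 230 and 8 counts. Per 1e6 counts of the raw library total, control 2 had 0.300 (Wilson 95% interval 0.138 to 0.655, counting error only) and knockout 3 had 0.696 (0.352 to 1.37), so these libraries could not be told apart at this depth. Means were 2.43 ± 2.64 and 7.05 ± 5.72 CPM (mean ± SD, 3 libraries a group), with a log2 fold change of 1.55 (SE 1.13, adjusted p = 0.347), and without knockout 3 it was 2.08 (adjusted p = 0.190).

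Hepatocytes are the main source of fibrinogen, and their markers gave no call. Of 8 hepatocyte markers 6 were tested, and all 6 had negative log2 fold changes. Their summed level was 206, 626 and 468 CPM in the controls and 160, 128 and 63.2 CPM in the knockouts, with the largest part by mean from Apob, which proximal tubules also express. Control 2 had the highest sum, of which Apob was 511 CPM. Control 3 was the highest library for Alb, Ahsg, Apoa1, Apoa2, Ttr and Tat. It had the highest Fgb and Fgg of the controls but, by a small margin, the lowest Fga (18.6 CPM). Without control 3 the log2 fold change was 2.87 for Fgb (adjusted p = 0.189), 2.09 for Fgg (adjusted p = 0.130) and 0.79 for Fga (adjusted p = 0.465). Prothrombin (F2) and plasminogen (Plg), the liver-made precursors of thrombin and plasmin, were too scarce to test. F2 had at most 0.840 CPM, in control 3, and Plg had 2, 10 and 28 counts in the controls and 4, 1 and 1 in the knockouts. The part of liver transcripts in the fibrinogen values was not tested.

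Fga led the chains in the controls and Fgg in the knockouts. Scaled to transcript length, Fga made up 57.7%, 62.5% and 41.0% of the summed level of the 3 chains in the controls and 39.5%, 31.9% and 36.9% in the knockouts. Fgg made up 34.2%, 35.4% and 37.7% in the controls and 47.9%, 52.5% and 58.2% in the knockouts. In neither chain did the groups overlap, and Fgg was the leading chain in knockout 3 too. Fgb made up between 2.08% and 21.2% in the controls and between 4.92% and 15.7% in the knockouts. The shares of a library are parts of the same sum, so a higher share of Fgg and a lower share of Fga are not separate observations. They are a description of 6 libraries, with no test.

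The start regions of the chains are shown because the 3 genes are neighbours whose transcripts were high and low in the same knockouts. The windows are chr3:83007474-83007723 (plus strand) for Fgg, chr3:83025903-83026152 (plus strand) for Fga and chr3:83049864-83050113 (minus strand) for Fgb in GRCm38.p6, each 250 bases written 5′ to 3′ toward the start with motif matches in capitals.
Fgg: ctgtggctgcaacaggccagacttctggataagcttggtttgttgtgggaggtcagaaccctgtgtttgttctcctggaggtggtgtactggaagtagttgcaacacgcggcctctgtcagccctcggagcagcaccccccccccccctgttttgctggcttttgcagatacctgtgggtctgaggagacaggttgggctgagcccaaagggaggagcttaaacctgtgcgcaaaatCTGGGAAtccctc
Fga: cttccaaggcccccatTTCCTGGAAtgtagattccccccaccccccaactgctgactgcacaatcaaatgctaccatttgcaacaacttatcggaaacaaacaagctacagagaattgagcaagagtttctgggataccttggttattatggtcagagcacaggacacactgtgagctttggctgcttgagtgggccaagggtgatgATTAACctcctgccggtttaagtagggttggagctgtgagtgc
Fgb: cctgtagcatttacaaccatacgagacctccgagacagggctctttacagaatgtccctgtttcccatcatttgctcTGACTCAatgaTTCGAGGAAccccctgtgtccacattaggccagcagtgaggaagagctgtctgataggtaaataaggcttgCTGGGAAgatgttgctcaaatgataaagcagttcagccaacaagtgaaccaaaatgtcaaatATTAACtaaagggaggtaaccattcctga
CTGGGAA was 13 to 7 bases before the start of Fgg and 91 to 85 before that of Fgb, and 9.10% of all windows held it. TTCNNNGAA was 234 to 226 bases before the start of Fga and 162 to 154 before that of Fgb, against 7.02% of all windows. GTTAAT lay on the strand opposite to the one written (printed ATTAAC) 43 to 38 bases before the start of Fga and 29 to 24 before that of Fgb, against 6.43%. Fgb also held TGANTCA, 173 to 167 bases before its start.

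The A chain of factor XIII, the enzyme that cross-links fibrin, had the widest spread among the knockouts for its mean. F13a1 (ENSMUSG00000039109, mm9 chr13:36959047-37142113, minus strand) had 3.43, 0.764 and 1.68 CPM in the controls and 2.94, 26.0 and 6.74 CPM in the knockouts. Knockout 2 stood above all other libraries, and knockout 1 lay within the control range. Means were 1.96 ± 1.36 and 11.9 ± 12.4 CPM (mean ± SD, 3 libraries a group), and the log2 fold change of 2.59 (SE 0.90) did not pass (adjusted p = 0.0820). It was 1.28 without knockout 2 (adjusted p = 0.250) and 3.04 without knockout 1 (adjusted p = 0.0245), and the highest value was 3.26 without control 1 (adjusted p = 0.111). DESeq2's Wald test called it on all 6 libraries (adjusted p = 0.00925).

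F13a1 is made by macrophages and by platelets. Macrophage and monocyte markers had the same order among the knockouts as F13a1, with 606, 2213 and 846 CPM in sum. Platelet markers summed to 17.9 to 23.2 CPM in the controls and to 14.7 to 19.7 CPM in the knockouts, with none of the 3 tested called. Most of that sum was Itga2b in the controls. Pf4 (platelet factor 4) had 1.09, 0.764 and 1.62 CPM in the controls and 1.08, 9.59 and 2.37 CPM in the knockouts, the order of F13a1 among the knockouts, with a log2 fold change of 1.91 (SE 0.81) that did not pass. Gp1bb and Treml1, too scarce to test, were highest in knockout 3 and knockout 2. Itga2b, Gp1ba and Ppbp went the other way, with every knockout below every control, and Ppbp was too scarce to test. Itga2b was lowest in knockout 2, at 6.47 CPM against at least 15.3 CPM in the controls. For Gp5 and Gp9, also too scarce to test, the groups overlapped. The platelet collagen receptor Gp6 was at 0 in every library, and 4 hemoglobin genes were listed at 0 as well. The part of either cell type in F13a1 was not tested.

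**Figure D3:**
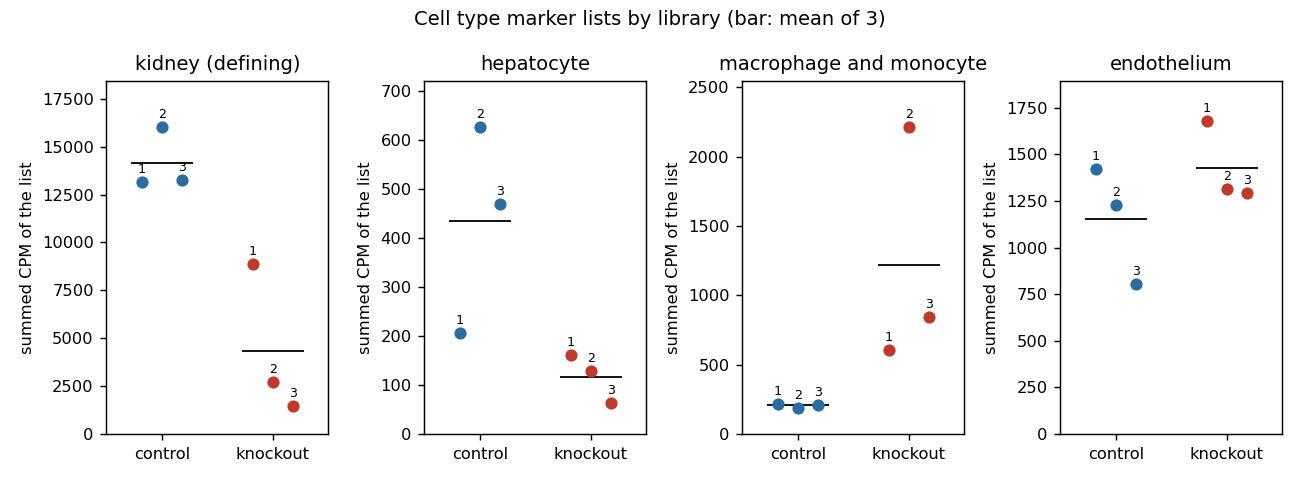
Summed CPM (vertical axis, linear from 0) of the marker lists for kidney (6 genes), hepatocyte (8), macrophage and monocyte (10) and endothelium (10) in each library, with replicate numbers and group means (n = 3) as bars. Knockout 2 is highest for macrophage markers at 2213 CPM, and knockout 1 is nearest to the controls for kidney markers at 8870 CPM. The hepatocyte sum is highest in control 2 at 626 CPM, of which Apob alone is 511 CPM.

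Urokinase was the most abundant of the 9 transcripts in every group and was low in 2 of the 3 knockouts. Plau (ENSMUSG00000021822, mm9 chr14:21655884-21662610, plus strand) had 935, 889 and 669 CPM in the controls and 715, 247 and 252 CPM in the knockouts. Knockout 1 lay between controls 2 and 3, whereas knockouts 2 and 3 lay well below every control. Means were 831 ± 142 and 405 ± 269 CPM (mean ± SD, 3 libraries a group), with a log2 fold change of -1.04 (SE 0.45) that did not pass (adjusted p = 0.140). Without knockout 1 it was -1.75 and passed (adjusted p = 0.00344). Knockout 1 was also the knockout with the highest sum of kidney markers, and the link between the 2 was not tested.

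Tissue plasminogen activator, the main activator in blood vessels, did not pass the test. Plat (ENSMUSG00000031538, mm9 chr8:23868216-23893319, plus strand) had 126, 71.8 and 83.0 CPM in the controls and 88.9, 129 and 116 CPM in the knockouts. The groups overlapped across most of their range. Means were 93.4 ± 28.4 and 112 ± 20.6 CPM (mean ± SD, 3 libraries a group), and the log2 fold change was 0.26 (SE 0.25, adjusted p = 0.480), with values of 0.089 to 0.52 under the other settings.

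Levels per kilobase of transcript put the 9 genes in order. In the controls the order was Plau (355 ± 60.5 CPM per kb, SD, n = 3), Plat (36.9 ± 11.2), F3 (13.7 ± 0.961), Thbd (11.1 ± 3.86), Fga (6.49 ± 0.164), Plaur (5.38 ± 1.36), Fgg (4.48 ± 1.19), Fgb (1.48 ± 1.61) and F13a1 (0.304 ± 0.210). The ranges of F3 and Thbd, of Fga and Plaur, of Plaur and Fgg, and of Fgb and F13a1 overlapped, and the other neighbours did not. In the knockouts Plau (173 ± 115) and Plat (44.1 ± 8.13) led again, followed by F3 (34.4 ± 10.8), Thbd (31.4 ± 12.3) and Fgg (16.3 ± 10.3), and Plau and Plat were the only neighbours whose ranges did not overlap.

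The activators were also compared with each other within a library. The ratio of Plau to Plat was 7.45, 12.4 and 8.07 in the controls and 8.04, 1.91 and 2.16 in the knockouts. Knockouts 2 and 3 were far below every control, and knockout 1 lay among them.

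Among the other genes of fibrinolysis, Serpine2 (protease nexin 1, an inhibitor of thrombin and urokinase) had 36.7, 25.7 and 30.6 CPM in the controls and 89.9, 150 and 170 CPM in the knockouts. Every knockout was above every control, and it rose 4.40-fold (log2 fold change 2.14, SE 0.27, adjusted p = 0.0271). A receptor pair for plasminogen and tissue plasminogen activator rose too, Anxa2 (annexin A2) 2.72-fold (adjusted p = 0.0326) and its partner S100a10 1.72-fold (adjusted p = 0.0434). In all, 10 of the 13 genes of that list were tested, 4 rose and none fell, beside 17.2% called of all genes. The list's median log2 fold change was 1.25. Serpinf2 (alpha2-antiplasmin, the main inhibitor of plasmin), named after its values were seen, had 99.3, 393 and 79.7 CPM in the controls and 51.8, 9.59 and 8.81 CPM in the knockouts. Every knockout was below every control, but the log2 fold change of -3.02 (SE 0.94) did not pass (adjusted p = 0.0646). Reads of Anxa2 and of annotated genes overlapping it may not have been told apart, since the strand setting of the counting is not given in the sources used here. This holds also for F5, Fgl2 and Icam1.

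**Figure D4:**
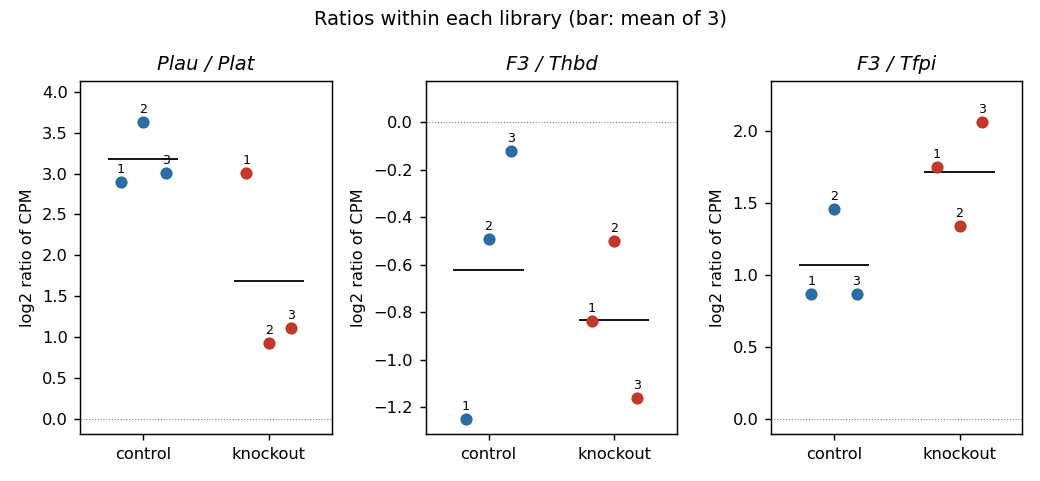
Log2 ratio of CPM (vertical axis) of Plau to Plat, of F3 to Thbd and of F3 to Tfpi in each library, with replicate numbers and the mean of 3 as a bar. The groups overlap in all 3 ratios, and for Plau to Plat knockouts 2 and 3 lie at 0.932 and 1.11 while knockout 1 lies among the controls at 3.01.

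Tissue factor rose beside thrombomodulin, and their ratio stayed within a like range. F3 was 0.420, 0.711 and 0.920 times the level of Thbd in the controls and 0.559, 0.707 and 0.446 times in the knockouts, so the groups overlapped. Tfpi, the inhibitor of tissue factor, had 13.2, 9.34 and 15.2 CPM in the controls and 12.3, 31.1 and 17.6 CPM in the knockouts and did not pass (log2 fold change 0.69, SE 0.37, adjusted p = 0.207). The ratio of F3 to Tfpi was 1.82 to 2.74 in the controls and 2.53 to 4.17 in the knockouts.

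The protein C system, on which thrombomodulin acts, split between receptor and substrate. Procr, the endothelial protein C receptor, had 3.08, 2.17 and 3.24 CPM in the controls and 8.98, 18.5 and 12.6 CPM in the knockouts, a rise of 4.70-fold (log2 fold change 2.23, SE 0.35, adjusted p = 0.0277). Proc, protein C itself, had 67.7, 189 and 130 CPM in the controls and 44.7, 11 and 13.5 CPM in the knockouts, a fall of 5.57-fold (log2 fold change -2.48, SE 0.63, adjusted p = 0.0426). The groups overlapped in neither gene. Proc was at -3.41 on the log2 scale when knockout 1 was left out. Without control 2, its highest library, it was at -2.11 and did not pass (adjusted p = 0.130). Pros1, protein S, the cofactor of activated protein C, rose 2.76-fold (adjusted p = 0.0285) and is named after its value was seen. Serpina10, the protein Z-dependent inhibitor of factor Xa, rose 13.4-fold (adjusted p = 0.0271), whereas its cofactor Proz fell 6.39-fold (adjusted p = 0.0329). The log2 fold change of Proz was -2.68, or -3.57 with knockout 1 left out. With knockout 3 left out it was -2.30 and did not pass (adjusted p = 0.0622). Of the 10 natural anticoagulants 9 were tested, 3 rose and 2 fell, beside 17.2% called of all genes. Their median log2 fold change was -0.57.

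Of the other clotting factors, both that passed were lower in the knockouts. F13b, the carrier chain of plasma factor XIII, had 110, 139 and 135 CPM in the controls and 44.8, 14.6 and 7.51 CPM in the knockouts. Every knockout lay below every control, with a fall of 5.71-fold (log2 fold change -2.51, SE 0.61, adjusted p = 0.0393). Without knockout 1 the log2 fold change was -3.53. Without knockout 3 it was -2.11 and did not pass (adjusted p = 0.0677). Of the 6 kidney markers the proximal tubule genes Lrp2 (log2 fold change -2.42) and Slc34a1 (-2.12) fell too, with knockouts 2 and 3 the lowest libraries as for F13b, Proc and Proz, and their part in these falls was not tested. F5, factor V, the cofactor of factor Xa, fell 3.27-fold (adjusted p = 0.0458), a call that was lost with upper quartile scaling (adjusted p = 0.0512), library size alone (0.0572) and limma-voom (0.0675). Vwf, the platelet-binding protein of endothelium, had 12.4, 10.2 and 7.44 CPM in the controls and 25.7, 65.5 and 13.7 CPM in the knockouts, which did not overlap, but it did not pass (log2 fold change 1.8, adjusted p = 0.0638), and leaving out knockout 2 gave a log2 fold change of 0.98. Of the 14 genes of the list 9 were tested, 2 fell and none rose, beside 17.2% called of all genes, with a median log2 fold change of -0.26. None of the 3 tested thrombin and protease-activated receptors passed, F2r (PAR1) at a log2 fold change of 1.25 (adjusted p = 0.108) that was 0.52 when knockout 2 was left out.

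**Figure D5:**
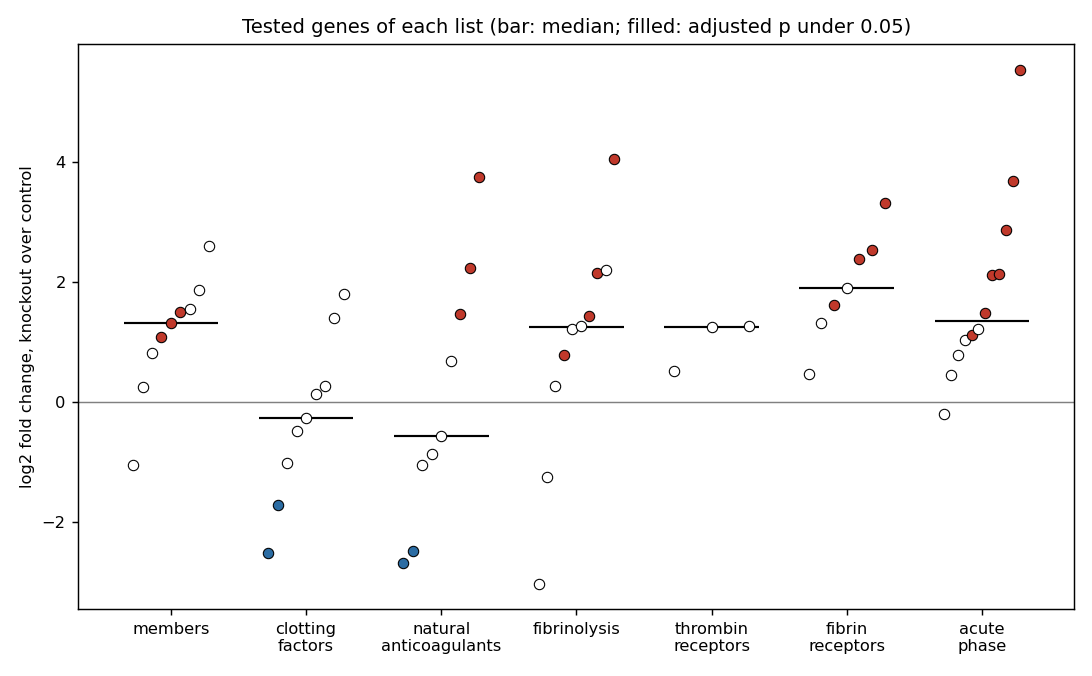
Log2 fold change of knockout over control (vertical axis) for the tested genes of the 9 members and of 6 lists of related genes, sorted within each list, with the list's median as a bar and genes with adjusted p under 0.05 filled (red higher, blue lower). Clotting factors and natural anticoagulants have medians below 0 (-0.26 and -0.57), and the other lists have medians between 1.25 and 1.90.

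Of the 7 fibrinogen-like genes and leukocyte fibrin receptors, 4 rose and none fell, beside 17.2% called of all genes. Itgam and Itgb2, the chains of the integrin Mac-1 that binds fibrinogen, had log2 fold changes of 3.32 (adjusted p = 0.0327) and 2.53 (adjusted p = 0.0332). Icam1, an adhesion receptor that also binds fibrinogen, rose 3.07-fold (adjusted p = 0.0303), and Fgl2, a fibrinogen-like protein with prothrombinase activity, rose 5.19-fold (adjusted p = 0.0452). The list's median log2 fold change was 1.90. Itgam is also a macrophage marker, and Itgam, Itgb2 and Fgl2 were highest in knockout 2, as were the macrophage markers, whose part in these rises was not tested. Without knockout 2 the log2 fold changes were 2.20 for Itgam, 1.84 for Itgb2 and 1.55 for Fgl2, against 2.38 for Fgl2 with it. Limma-voom called none of these 3 (adjusted p = 0.0884, 0.0678 and 0.108).

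Of the acute-phase and interleukin-6 response genes, the class to which liver fibrinogen belongs, 7 rose. Socs3, an early target of STAT3, had 3.73, 2.06 and 4.50 CPM in the controls and 26.9, 28.0 and 20.5 CPM in the knockouts. Knockout 3 was the lowest knockout and still far above the controls, with a rise of 7.31-fold (log2 fold change 2.87, SE 0.32, adjusted p = 0.0271). Lcn2, also an injured tubule marker, rose 46.1-fold (adjusted p = 0.0271), C3, the central complement factor, 12.8-fold (log2 fold change 3.68, adjusted p = 0.0288, and 4.37 without control 1, where adjusted p = 0.0805) and Lbp, the lipopolysaccharide binding protein, 4.38-fold (adjusted p = 0.0297). Of the 15 genes 12 were tested, 7 rose and none fell, beside 17.2% called of all genes. The list's median log2 fold change was 1.35. All 5 injured tubule markers rose, and their sum was 19.9 to 25.9 CPM in the controls and 351, 620 and 559 CPM in the knockouts.

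Over the 6 lists, 50 of 63 genes were tested, 18 rose and 4 fell, beside 10.6% higher and 6.64% lower among all genes. The median log2 fold change of the 50 was 1.22. Without control 1, 2 or 3 or knockout 3 none of these genes had an adjusted p under 0.05 in edgeR, with 30 to 34 at an unadjusted p under 0.05. Without knockout 2 there were 2 calls, beside 73 among all genes. Leaving out knockout 1 gave 34 calls, beside 34.4% of all genes in that fit.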

How the data were processed

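Poly-A RNA of 6 kidneys, 3 control and 3 TfR1KO;KspCre, was grouped by the sample titles. Raw gene counts were deposited, which the authors made with CASAVA 1.8.2, Trimmomatic, TopHat 2.0.11 on mm9 and HTSeq. The annotation and strand setting of the counting are not given in the sources used here. Counts (24422 genes) were tested in R 4.3.3 with edgeR 4.0.16 (filterByExpr, minimum count 10 and total 15, TMM, legacy quasi-likelihood test without covariates, Benjamini-Hochberg adjustment over 15171 genes, threshold 0.05). The SE is the log2 fold change over the square root of F. CPM are TMM-normalised, with a prior count of 2 on the log2 scale. Levels per kilobase used the exon union of GENCODE M1 (mm9). Genes named are the 9 members, up to 4 called genes of each list with the largest change, and fixed partners of a member. A gene of the lists is not reported here. The members and lists were chosen with earlier results of these data known. Alternatives were other scalings and filters, DESeq2 1.42.0, limma-voom (limma 3.58.1), each library left out, the replicate number, and an Xist to Y-linked ratio as a covariate. The fits were tested on simulated data. Promoters are from RefSeq GRCm38.p6.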

Additional observations from a re-analysis of the deposited data

How the results depend on the processing

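All 9 members kept the sign of their log2 fold change under each of the 17 alternatives, except that Fgb could not be tested with at least 10 counts in every library. Against 3 members called on all 6 libraries, DESeq2's Wald test called 5 (Fgg and F13a1 in addition, 32.2% of all genes) and library size alone called 4 (24.0% of all genes). With each library left out in turn the count was 0 to 5 for members, 0 to 34 for the other pathway genes (22 on all libraries) and 0 to 5332 for all genes (2612 on all libraries). The highest values came without knockout 1. Without control 1, 2 or 3 edgeR called 0 genes, with 4270 to 4823 at an unadjusted p under 0.05, without knockout 2 it called 73 and without knockout 3 it called 2. DESeq2's Wald test called 4882 genes. With the replicate block, edgeR called 0 members, 0 pathway genes and 0 genes in all, with 4, 31 and 5432 at an unadjusted p under 0.05. Same-numbered libraries deviated together with correlations of -0.129, 0.0116 and 0.215, and 2 of 6 libraries correlated best with their own number, so the numbers were not taken as pairs. With the Xist to Y-linked ratio as a covariate edgeR also called 0 members, 0 pathway genes and 0 genes in all, with 3, 28 and 4221 at an unadjusted p under 0.05. For single genes 153 values lost the call, 9 gained one and 0 changed sign under an alternative, and 346 kept both. The cause was not tested. With 3 libraries a group, and Fgb at 6 to 230 counts, changes of the scarce genes were measured with SEs of up to 1.13 on the log2 scale.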

Other observations

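The genes whose log2 CPM followed each member most closely over the 6 libraries were found among 13654 genes by Pearson's r. The points share libraries, scaling and the genotype contrast, so the values are a description. The closest was Casp12 for F3 (r = 0.999), Zfp646 for Thbd (r = 0.998), Bmf for Plaur (r = 0.999), Tmem207 for Plau (r = 0.999), Gas1 for Plat (r = 0.971) and Sdcbp2 for F13a1 (r = 0.996). For the fibrinogen chains it was Wdr86 for Fga (r = 0.982), Rab30 for Fgb (r = 0.986) and Rhod for Fgg (r = 0.972). No member was the closest gene of another. Among the members, Plaur and Thbd had the highest value (r = 0.97), the fibrinogen chains followed each other at r = 0.78 to 0.87, F13a1 had r = 0.85 with Plat, and Plau ran opposite to F3 (r = -0.96).

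Markers of 2 further cell types that meet fibrin in tissue were measured. Of 5 fibroblast markers 1 passed, higher in the knockouts, the median log2 fold change was 1.97, and the sums were 348, 247 and 180 CPM in the controls and 410, 1757 and 1067 CPM in the knockouts. Of 8 neutrophil markers 3 were tested and none passed, and the list summed to between 2.44 and 5.34 CPM in the controls and to 3.48, 18.7 and 8.04 CPM in the knockouts. In both lists knockout 2 was the highest library, as for F13a1.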
